A study of Mus musculus with 10 samples.

Results

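Complex I of the respiratory chain takes electrons from NADH, passes them to ubiquinone and pumps protons across the inner mitochondrial membrane. Most of its subunits are encoded in the nucleus, and mitochondrial DNA (mtDNA) encodes 7 of the core subunits of its membrane arm. The mRNAs of these 7 subunits are described here in mouse hippocampus. They were chosen as the rows of the deposited count table whose symbol starts with mt-Nd, and this rule gave 7 of 20156 gene rows: mt-Nd1, mt-Nd2, mt-Nd3, mt-Nd4, mt-Nd4l, mt-Nd5 and mt-Nd6. The rule reads gene symbols alone, although earlier results of these data were known when the set was picked.

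The study sequenced hippocampal RNA of 10 mice aged 6 months, 5 of them wild type (WT) and 5 labelled TfamAKO. Both groups went through the same stranded mRNA library kit, and the labels name no treatment. Tfam encodes the protein that packages mtDNA and starts its transcription. The series title places the study in the mitochondria of astrocytes, while the labels give neither the cells in which Tfam was targeted nor the deleted part, a Cre driver, sex, litter or batch.

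Transcription of mtDNA runs along both strands and gives long precursor RNAs, which are cut into mRNAs, rRNAs and tRNAs. Each mRNA can then be kept or degraded at its own rate. The precursor that holds mt-Nd1, mt-Nd2, mt-Nd3, mt-Nd4l, mt-Nd4 and mt-Nd5 also holds the mRNAs of complexes III, IV and V. In the GENCODE M21 annotation, mt-Nd6 was the only protein-coding gene on the other strand. The 7 gene models ran from 297 bases (mt-Nd4l) to 1824 bases (mt-Nd5). The sources used here do not name the build of the authors' annotation, and positions are therefore left out.

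Among the mt-Nd genes, mt-Nd4l overlaps mt-Nd4 and mt-Nd5 overlaps mt-Nd6 at their ends. These ends are shown because reads across them can match more than 1 member, for mt-Nd5 and mt-Nd6 only where strand is ignored. The sequences are the last 30 bases of mt-Nd4l, the first 30 of mt-Nd4, and the last 30 of mt-Nd5 and of mt-Nd6, each 5′ to 3′ on the gene's own strand from the GENCODE M21 transcripts (GRCm38). Capitals mark the shared bases.
mt-Nd4l: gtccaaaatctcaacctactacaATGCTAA
mt-Nd4: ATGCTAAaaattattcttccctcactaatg
mt-Nd5: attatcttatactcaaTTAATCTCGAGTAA
mt-Nd6: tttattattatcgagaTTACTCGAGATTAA

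The last 7 bases of mt-Nd4l are the first 7 of mt-Nd4, on the same strand, and these genes are known to share a single mRNA. The last 14 bases of mt-Nd5 and of mt-Nd6 are the reverse complement of each other, because these genes meet end to end on opposite strands. Whether the authors counted reads by strand is not stated in those sources. The base make-up of mt-Nd6 also set it apart: G made up 28.1% of its coding strand, and 8.0% to 11.6% in the other 6 members. Words of 31 bases were searched for in all other GENCODE M21 transcripts, since nuclear copies of mtDNA can take reads. The search found 8 pseudogenes that shared words with 6 members (all except mt-Nd1), and they are not analysed here. The shared words covered 98.1% of those of mt-Nd3, 98.9% of mt-Nd4l and 62.8% of mt-Nd4, against 13.5% of mt-Nd2, 12.8% of mt-Nd5 and 7.36% of mt-Nd6 for the pseudogene closest to each. No label says how reads were divided between such copies, so the levels of members that share words are uncertain.

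Total counts ran from 16584245 to 26032470 per WT library and from 19558377 to 28675367 per TfamAKO library. For Tfam, WT 1 to 5 gave 31.7, 33.0, 20.6, 32.5 and 30.4 CPM (counts per 1000000 of the scaled library size), against 23.6, 22.7, 19.6, 23.1 and 23.4 CPM for TfamAKO 1 to 5, so the groups overlapped through WT 3. The excitatory neuron gene Camk2a, which was picked with its level known, was at 4158 ± 437 CPM in WT (SD, n = 5) and fell by 0.30 ± 0.08 on the log2 scale in TfamAKO (edgeR adjusted p = 0.0163). The summed level of 12 choroid plexus markers was 4145 to 7760 CPM in WT 3, 4 and 5 and 165 to 422 CPM in the other 7 libraries. Only TfamAKO 4 and 5 expressed the Y-linked gene Kdm5d above 1 CPM, at 22.7 and 22.4 CPM. The fits and the shares below were therefore also computed without WT 3, 4 and 5 and without TfamAKO 4 and 5. In whole hippocampus, fewer cells of a type and less RNA per cell cannot be told apart.

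The mRNAs of 5 members, mt-Nd1, mt-Nd2, mt-Nd3, mt-Nd4 and mt-Nd4l, fell in TfamAKO, and mt-Nd5 and mt-Nd6 did not pass the test. Fitted changes of these 5 ran from -23% for mt-Nd3 to -41.6% for mt-Nd2. The median log2 fold change of the 7 members was -0.49, against -0.02 over all 16180 genes tested. All 7 members passed the filter on low counts. Of all genes tested, 16.6% fell and 20.8% rose in the same comparison, 37.4% in either direction (edgeR quasi-likelihood test, Benjamini-Hochberg adjusted p threshold 0.05). The members together made up 1.80%, 2.19%, 1.97%, 1.68% and 1.59% of counts in WT 1 to 5 and 1.30%, 1.45%, 1.22%, 1.47% and 1.30% in TfamAKO 1 to 5. The groups did not overlap in this share, whose means were 1.85% ± 0.241 and 1.35% ± 0.106 (SD, n = 5 each), and counting error was small beside the spread (Wilson 95% intervals at most 0.0128 percentage points wide).

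**Figure D1:**
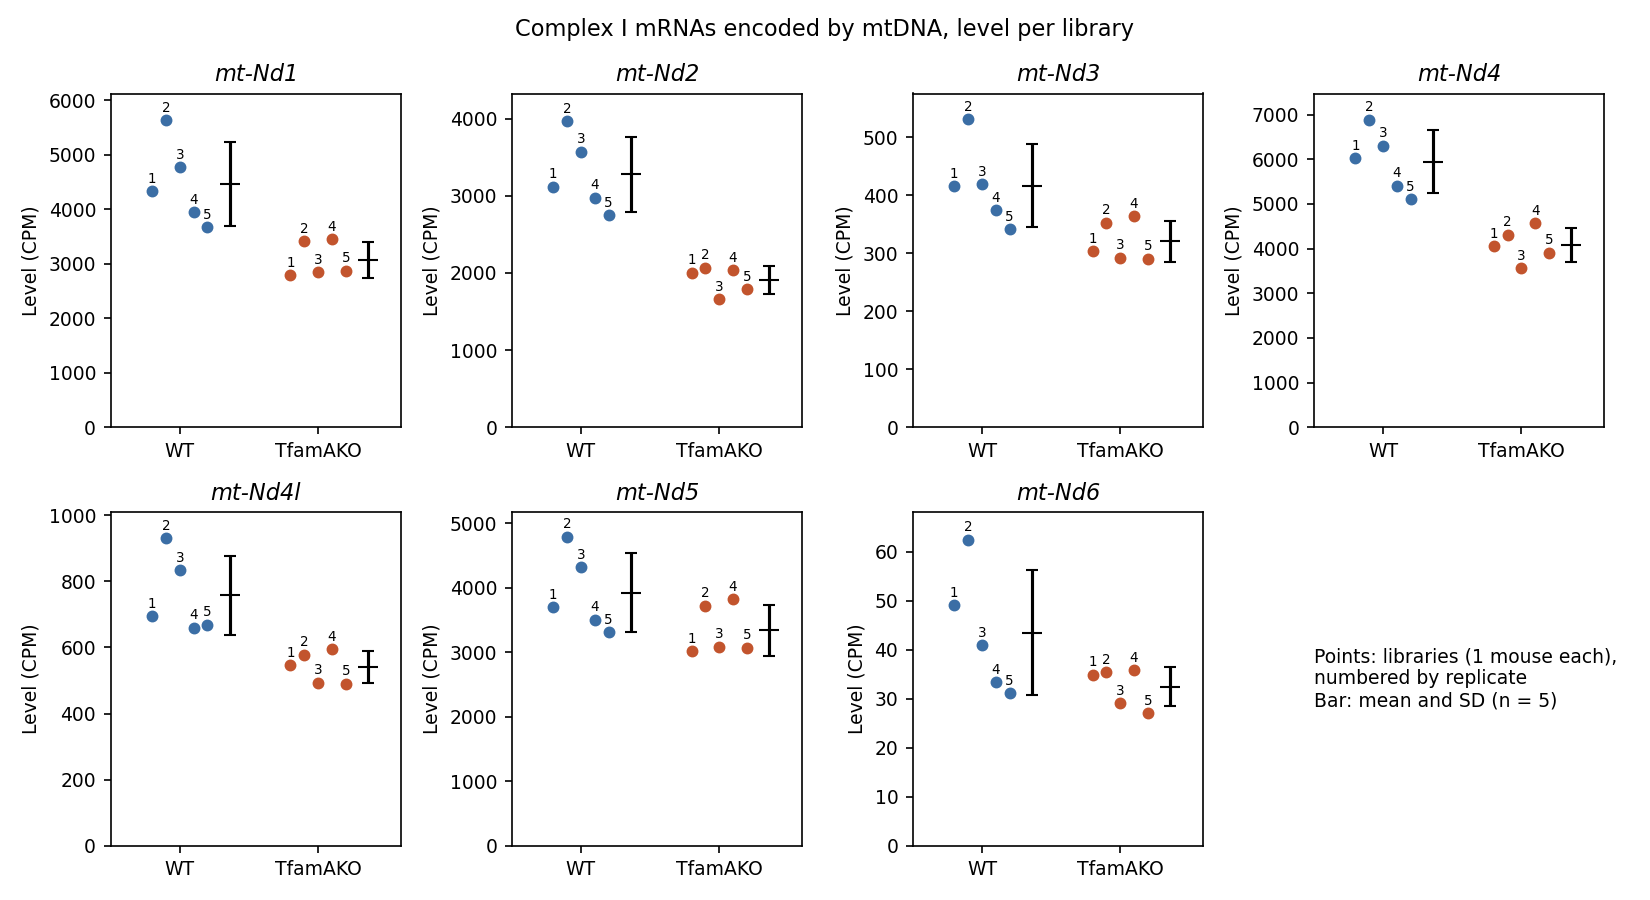
Level of each mRNA in CPM (vertical axes from 0, scaled per gene) in the 5 WT and 5 TfamAKO libraries, numbered by replicate, with the mean and SD beside them. The groups are separate for mt-Nd1, mt-Nd2, mt-Nd4 and mt-Nd4l and overlap for mt-Nd3, mt-Nd5 and mt-Nd6, and WT 2 is the highest WT library in all 7 panels.

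The subunits ND2, ND4 and ND5 resemble sodium-proton antiporters and form the proton-pumping part of the membrane arm, and their mRNAs did not change alike. For mt-Nd2, WT 1 to 5 gave 3117, 3965, 3573, 2977 and 2749 CPM, against 2002, 2070, 1656, 2038 and 1792 CPM for TfamAKO 1 to 5. Every TfamAKO library lay below every WT library. Its log2 fold change of -0.78 ± 0.10 (SE) was the most negative of the 13 mRNAs encoded by mtDNA (edgeR adjusted p = 0.000153), and 4.36% of all genes tested had a value as low or lower.

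The mRNA of mt-Nd4 had levels of 6030, 6882, 6301, 5406 and 5103 CPM in WT, compared with 4054, 4308, 3564, 4570 and 3910 CPM in TfamAKO. These groups did not overlap either, and mt-Nd4 fell by 0.54 ± 0.09 on the log2 scale (edgeR adjusted p = 0.000820). The bicistronic partner of mt-Nd4, mt-Nd4l, encodes a small subunit of the membrane arm. Its levels were 694, 931, 833, 659.6 and 669 CPM in WT, compared with 546, 578, 494, 594 and 491 CPM in TfamAKO. It also separated the groups and fell by 0.49 ± 0.10 on the log2 scale (edgeR adjusted p = 0.00319). Per base of coding length, mt-Nd4l was at 0.534 to 0.627 of mt-Nd4 in WT and at 0.582 to 0.643 in TfamAKO, overlapping ranges.

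The third antiporter-like subunit, ND5, had an mRNA that did not pass the test. Levels of mt-Nd5 were 3695, 4791, 4317, 3506 and 3315 CPM in WT 1 to 5, compared with 3013, 3721, 3087, 3823 and 3073 CPM in TfamAKO 1 to 5. TfamAKO 2 and 4 lay inside the WT range. The log2 fold change of mt-Nd5 was -0.23 ± 0.11 (edgeR adjusted p = 0.120), with an unadjusted 95% interval from -0.47 to 0.01. That interval includes 0 and does not reach the value of mt-Nd2. Over 25 alternatives the log2 fold change of mt-Nd5 ran from -0.32, without WT 3, 4 and 5, to -0.14, without WT 2, the highest library. It passed in none of them, and the lowest edgeR adjusted p was 0.0590, without WT 5.

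The remaining members sit where the membrane arm meets the arm that takes up electrons. ND1 lines the ubiquinone site, and its mRNA had levels of 4338, 5636, 4770, 3950 and 3672 CPM in WT 1 to 5, compared with 2793, 3415, 2844, 3447 and 2873 CPM in TfamAKO 1 to 5. The groups did not overlap, and mt-Nd1 fell by 0.54 ± 0.11 on the log2 scale (edgeR adjusted p = 0.00317). Of the 7 members, 4 had groups that did not overlap and were lower in TfamAKO, against 9.43% of all genes tested. ND3 carries a loop beside the ubiquinone site, and mt-Nd3 had levels of 416, 530.5, 419, 375 and 341 CPM in WT, compared with 303, 352, 292, 364 and 291 CPM in TfamAKO. TfamAKO 2 and 4 lay above WT 5, so the groups overlapped. The fall of mt-Nd3 passed the test (log2 fold change -0.38 ± 0.11, edgeR adjusted p = 0.0205), and it lost the call without TfamAKO 3 (0.0552, within a range of 0.00650 to 0.0552 over 25 alternatives).

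ND6, encoded on the other strand, had the least abundant mRNA of the set. Levels of mt-Nd6 were 49.1, 62.4, 41.0, 33.4 and 31.2 CPM in WT 1 to 5, compared with 34.8, 35.4, 29.1, 35.8 and 27.1 CPM in TfamAKO 1 to 5. WT 1, 2 and 3 lay above all TfamAKO libraries, and WT 4 and 5 lay inside the TfamAKO range. The log2 fold change of mt-Nd6 was -0.42 ± 0.17 (edgeR adjusted p = 0.0766), with an unadjusted 95% interval from -0.80 to -0.04. The same gene spread most within WT, where the SD was 29.4% of the mean, against 11.9% to 17.2% in the other 6 members. Its counts per library ran from 583 to 1489, the fewest of the set. When the 3 WT libraries with choroid plexus transcripts were left out, its log2 fold change was -0.76 ± 0.14 (edgeR adjusted p = 0.00830). It also passed without WT 4 (0.0471) or WT 5 (0.030) alone, with adjusted p from 0.00830 to 0.193 over 25 alternatives. Without WT 2 it was at -0.23. The kit selects polyadenylated RNA, and the human mRNA of ND6 is known to carry little or no poly(A) tail, so its level is that of the RNA the kit captured.

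**Figure D2:**
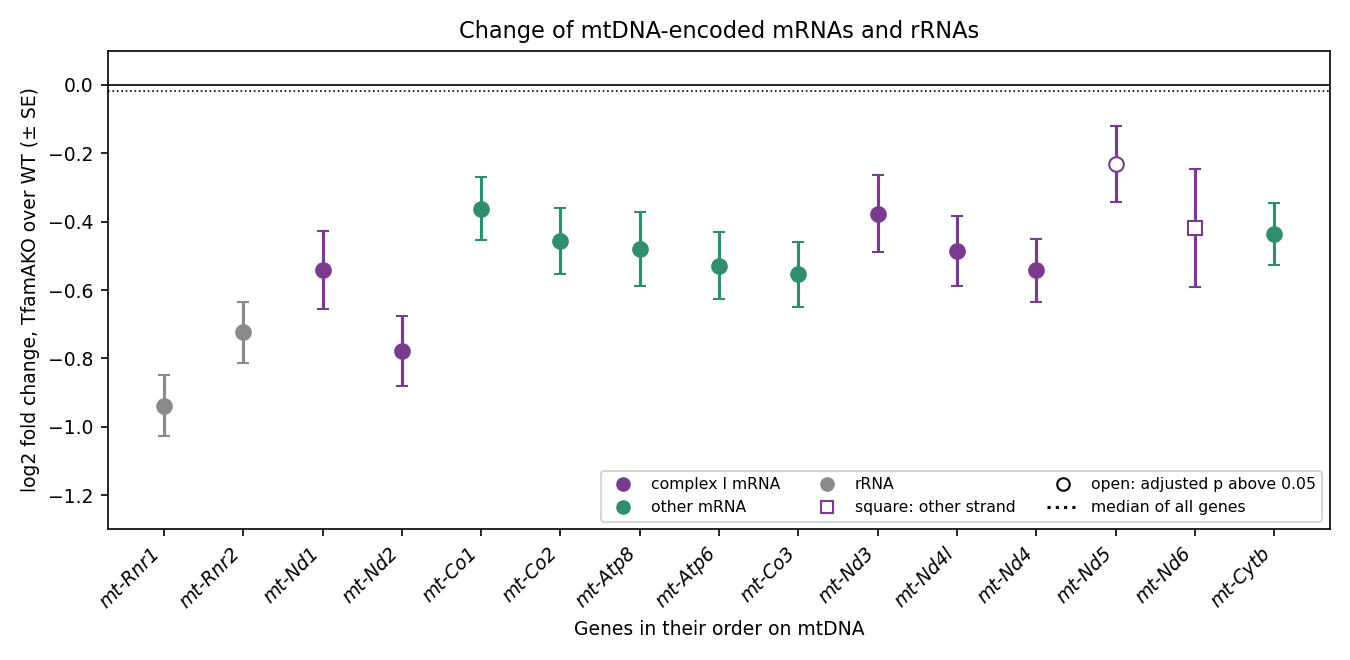
Log2 fold change of TfamAKO over WT (vertical axis, with SE) for the 2 rRNAs and 13 mRNAs encoded by mtDNA, in gene order; purple points are the complex I mRNAs and open points did not pass the test. All 15 values lie below 0, with mt-Nd2 at -0.78 lowest and mt-Nd5 at -0.23 highest among the mRNAs.

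The other products of the same precursor changed in the same direction. All 6 mRNAs of complexes III, IV and V fell (median -0.47), with log2 fold changes from -0.55 for mt-Co3 to -0.36 for mt-Co1. That range held the values of mt-Nd1, mt-Nd3, mt-Nd4, mt-Nd4l and mt-Nd6, but not those of mt-Nd2 and mt-Nd5. Both rRNAs, which the count table lists by Ensembl identifier and GENCODE M21 names, fell further than those 6 mRNAs. On the log2 scale mt-Rnr1 fell by 0.94 ± 0.09 (edgeR adjusted p = 1.52e-05) and mt-Rnr2 by 0.72 ± 0.09, the latter by less than mt-Nd2. These values are for the rRNA that a kit selecting polyadenylated RNA captured. It made up 0.649% of WT counts on average, against 5.85% for the 13 mRNAs. The order of the values did not follow the order of the genes: mt-Nd1 (-0.54) lies between mt-Rnr2 and mt-Nd2 (-0.78), and mt-Nd4 (-0.54) is followed by mt-Nd5 (-0.23).

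Unequal change within the set was tested with the share of each mRNA among the counts of all 13 mtDNA-encoded mRNAs in a library, which does not depend on how libraries are scaled. The shares of a library add up to the whole, so a rise of some lowers others. The share of mt-Nd2 was 5.24%, 5.64%, 5.59%, 5.41% and 5.55% in WT 1 to 5 and 4.89%, 4.4%, 4.18%, 4.28% and 4.28% in TfamAKO 1 to 5. It fell by 1.08 percentage points with no overlap of the groups. The share of mt-Nd5 moved the other way, from 6.22%, 6.82%, 6.76%, 6.37% and 6.70% in WT to 7.35%, 7.90%, 7.78%, 8.04% and 7.34% in TfamAKO. It rose by 1.11 percentage points, also without overlap. By exact permutation over all assignments of 5 and 5 libraries (two-sided), p was 0.00794 for both, which is the lowest value such a test allows, and 0.0258 after adjustment over the 13 mRNAs. Counting error reached 0.118 percentage points of interval width for mt-Nd5 and 0.0933 for mt-Nd2.

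**Figure D3:**
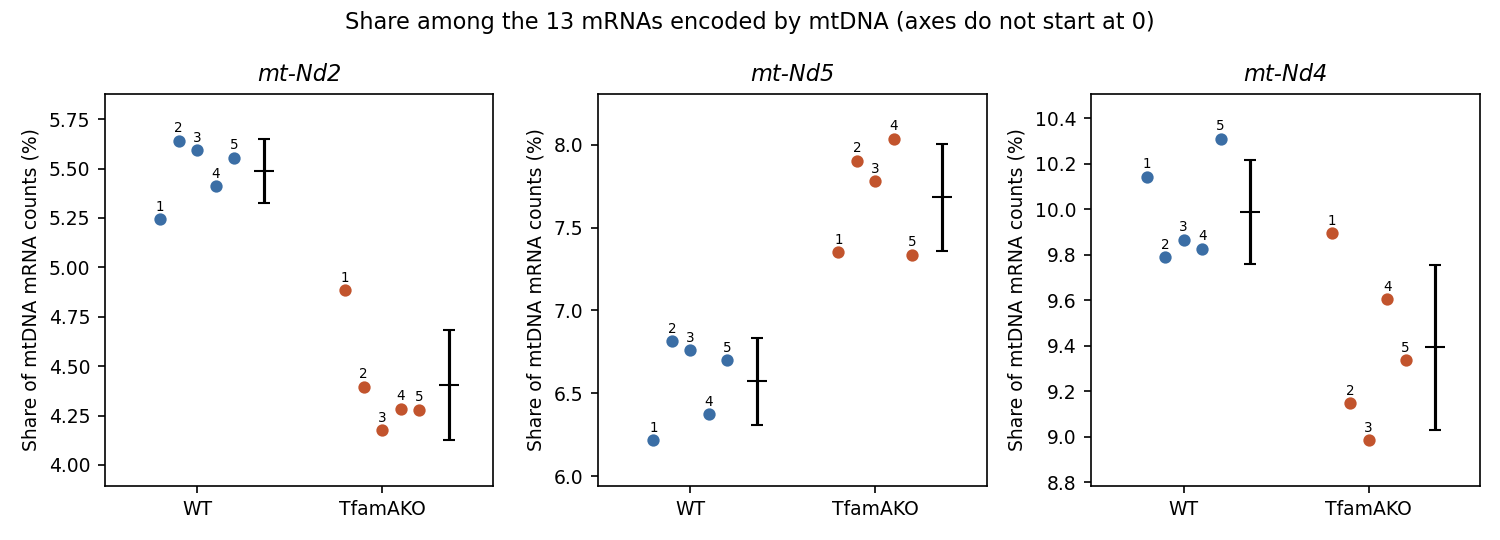
Share of mt-Nd2, mt-Nd5 and mt-Nd4 among the counts of the 13 mtDNA-encoded mRNAs (vertical axes in percent, not starting at 0) per library, with mean and SD. The share of mt-Nd2 lies between 5.24% and 5.64% in WT and between 4.18% and 4.89% in TfamAKO, whereas that of mt-Nd5 is higher in all 5 TfamAKO libraries.

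The shares of the other 5 members did not pass this test. That of mt-Nd4 went from 9.99% ± 0.228 to 9.39% ± 0.363 and that of mt-Nd1 from 7.48% ± 0.323 to 7.07% ± 0.214 (exact permutation p = 0.0317 for both, adjusted p = 0.0590). For mt-Nd3, mt-Nd4l and mt-Nd6 the adjusted p was 0.181, 0.774 and 0.774. Among the mRNAs of the other complexes, the share of mt-Co1 rose (by 1.97 percentage points) and that of mt-Atp6 fell by 0.511, which makes 4 of the 13 shares called, or 30.8%. The calls for mt-Nd2 and mt-Nd5 were lost without WT 2 or WT 3 (adjusted p = 0.0516 in each case), without TfamAKO 4 and 5 (0.0580) and without WT 3, 4 and 5 (0.124), where the smaller groups limit the p that can be reached, within ranges of 0.0206 to 0.124 over 13 alternatives for both. Their differences stayed between -1.20 and -1.0 percentage points for mt-Nd2 and between 1.02 and 1.20 for mt-Nd5 over those alternatives.

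Levels compared per coding length put the members in a similar but not identical order in the genotypes. In WT the means were 4674 CPM per kb for mt-Nd1, 4314 for mt-Nd4, 3156 for mt-Nd2, 2550 for mt-Nd4l, 2152 for mt-Nd5, 1196 for mt-Nd3 and 83.6 for mt-Nd6. Each gene exceeded the next in all 5 WT libraries, although the ranges of neighbours overlapped down to mt-Nd5. In TfamAKO the means of mt-Nd2, mt-Nd5 and mt-Nd4l were close to each other, at 1842 ± 173, 1833 ± 216 and 1820 ± 160 CPM per kb. Compared within libraries, mt-Nd5 exceeded mt-Nd4l in 4 of 5 TfamAKO libraries. Per base, mt-Nd2 exceeded mt-Nd5 in 5 of 5 WT libraries and in 2 of 5 TfamAKO libraries. The ratio of mt-Nd2 to mt-Nd5, a pair chosen after its values were seen and therefore given without a test, was 1.48, 1.45, 1.45, 1.49 and 1.46 in WT 1 to 5. It was 1.17, 0.977, 0.943, 0.937 and 1.02 in TfamAKO 1 to 5, with TfamAKO 1 closest to WT. Lengths were not corrected for fragment size, which lowers the level of the shortest genes, mt-Nd4l and mt-Nd3.

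Within each genotype the members varied together. WT 2 was highest for 7 of 7 members and WT 5 lowest for 6, and TfamAKO 4 was highest for 6 of 7. As deviations of log2 CPM from the genotype mean over the 10 libraries, each member correlated with the mean of the other members at Pearson's r of 0.862 (mt-Nd6) to 0.977 (mt-Nd3). The 6 other mtDNA-encoded mRNAs correlated with the mean of the members at 0.833 to 0.962. All of these share libraries and depth, and the values are descriptive. WT 2 was also the library with the highest summed level of 10 oligodendrocyte markers (9515 CPM, against 5510 to 6632 CPM in the other WT libraries), whose part in its high values was not tested.

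The 5 nuclear genes whose deviations were most like the members' mean, among 14775 genes with at least 1 CPM, were Egf (r = 0.938), Glyctk (0.936), Arg2 (0.931), Tpt1 (0.913) and Mlycd (0.912). With 10 libraries and so many genes, values of this size are given only as a ranking. Their genotype differences were of either sign. On the log2 scale Arg2, a mitochondrial arginase, fell by 0.95 ± 0.20 (edgeR adjusted p = 0.00322) and Tpt1 rose by 0.41 ± 0.06 (edgeR adjusted p = 0.000554). The growth factor gene Egf (0.53 ± 0.32), the glycerate kinase gene Glyctk (-0.08 ± 0.15) and the malonyl-CoA decarboxylase gene Mlycd (-0.01 ± 0.06) did not pass.

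The nuclear partners of these subunits are given as counts, with no test against the members. Over all genes tested, 16.6% fell and 20.8% rose, with a median log2 fold change of -0.02. Of 36 nuclear-encoded complex I subunits, 9 fell and 0 rose, with a median log2 fold change of -0.12. Ndufb2 (-0.76 ± 0.09), Ndufa1 (-0.51 ± 0.08), Ndufb10 (-0.33 ± 0.06) and Ndufc1 (-0.45 ± 0.10), accessory subunits of the membrane arm, had the smallest p. The ratio of the summed CPM of the 7 members to the summed CPM of the nuclear subunits was 6.40 to 9.16 in WT and 4.97 to 5.98 in TfamAKO, without overlap. Of 18 complex I assembly factors, 6 fell and 1 rose, with a median of -0.09, and Tmem126b (-0.47 ± 0.11) and Dmac2 (-0.27 ± 0.07) had the smallest p.

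Genes that act on the mtDNA precursor are given against the background of 16.6% lower and 20.8% higher over all genes tested. In the list of mtDNA transcription, with a median log2 fold change of -0.17, 2 of 7 fell and 0 rose: Tfam (-0.40 ± 0.12, edgeR adjusted p = 0.0204) and the termination-factor family gene Mterf2 (-0.48 ± 0.12, edgeR adjusted p = 0.0105). Tfam is the gene that the genotype is named for, so its fall is no result about the list, which leaves Mterf2. The count is therefore not read as an excess over all genes. The mitochondrial RNA polymerase gene Polrmt (-0.17 ± 0.10) and the transcription factor gene Tfb2m (-0.20 ± 0.09) did not pass. In the list of mitochondrial RNA processing and stability, 2 of 20 fell and 2 rose, no larger a share than over all genes in either direction, and the median was -0.02, as over all genes. The FASTK-family genes Fastkd2 (-0.37 ± 0.10) and Fastkd3 (-0.37 ± 0.11) were lower, and Pde12 (0.29 ± 0.08), which shortens mitochondrial poly(A) tails, and Mterf3 (0.31 ± 0.11) were higher. The other FASTK-family genes of the list did not pass in either direction. Proteins of this FASTK family are known to act on mitochondrial transcripts, mt-Nd mRNAs among them, and their part in the changes here was not tested.

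Markers of several cell types moved with the genotype, and their counts stand beside 16.6% lower and 20.8% higher over all genes tested. The summed level of 12 neuron markers was 12061 to 13060 CPM in WT and 9374 to 11161 CPM in TfamAKO, and 8 of the 12 fell (median log2 fold change -0.33). That of 10 microglia markers was 389 to 454 CPM in WT and 718 to 902 CPM in TfamAKO, with 9 of 10 higher (median 0.92). That of 8 endothelial markers was 232 to 299 CPM in WT and 344 to 532 CPM in TfamAKO, with 5 of 8 higher (median 0.72), and none of these 3 sums overlapped. Astrocyte markers split, with 5 of 12 higher and 5 lower (median -0.03), and a sum of 4858 to 5968 CPM in WT and 5336 to 7874 CPM in TfamAKO. Of 10 oligodendrocyte markers, 2 rose and 1 fell (median 0.16), and all 12 choroid plexus markers fell (median -3.55). The choroid plexus sum was high only in WT 3, 4 and 5 (4145 to 7760 CPM). It was 165 and 422 CPM in WT 1 and 2, around the 190 to 359 CPM of TfamAKO. Only 1 of the 12 markers had groups that did not overlap. The part of these cell types in the fall of the mt-Nd mRNAs was not tested. The 5 falls were present without WT 3, 4 and 5, where mt-Nd2 was at -0.87 ± 0.12 and mt-Nd1 at -0.68 ± 0.13, and without TfamAKO 4 and 5, where they were at -0.78 ± 0.13 and -0.57 ± 0.14 on the log2 scale.

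**Figure D4:**
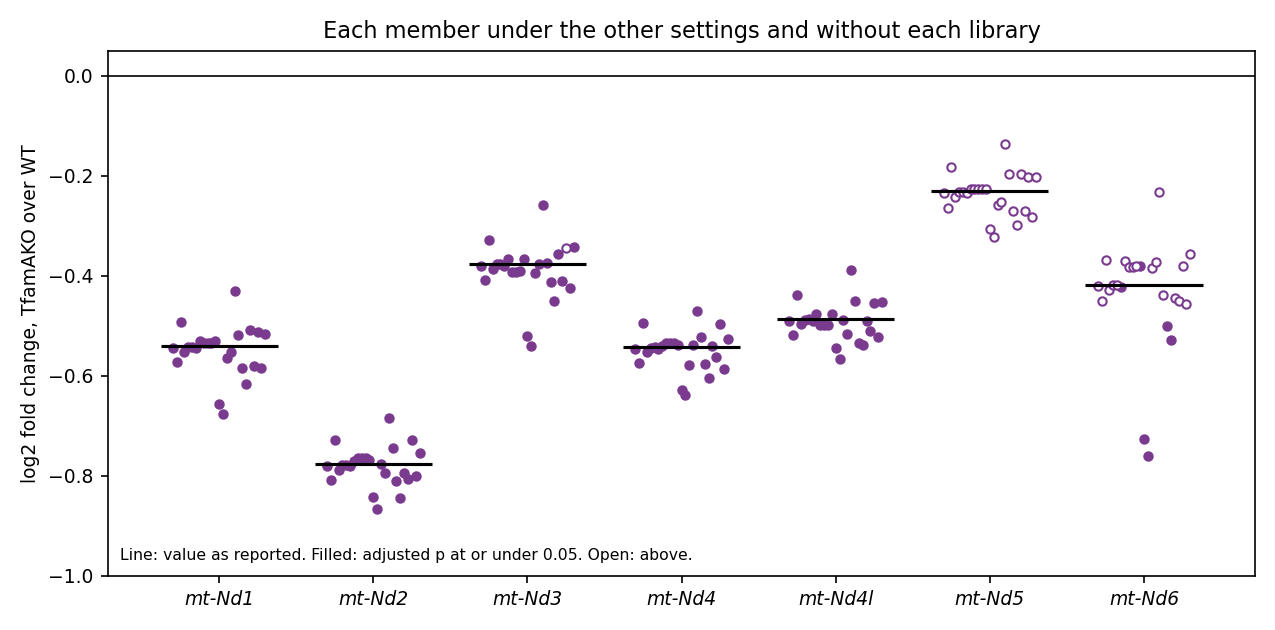
Log2 fold change of each member (vertical axis) under 25 other settings, among them leaving out each library; the line marks the value from all libraries, and filled points passed the test. Every point lies below 0, mt-Nd5 is open throughout, and mt-Nd6 is filled in 6 of 25.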

How the data were processed

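RNA-seq of hippocampus was deposited as 2 tables of 20156 genes by 10 libraries, 1 per mouse. The first holds estimated counts, which the authors deposited as whole numbers, so rounding changed no value. The second holds a normalized signal that the authors made in a way the sources used here do not state. The submitters' processing notes name Salmon, without a version, and DESeq2 1.26.0. Genome build, annotation and strand setting are not stated there.

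Counts were analysed with edgeR 4.0.16 (R 4.3.3). filterByExpr with a minimum count of 10 kept 16180 genes, TMM factors scaled the libraries, and genotype was the only term of the two-sided quasi-likelihood F test. P-values were adjusted over all genes by the Benjamini-Hochberg method. SE was obtained from the fold change and its F statistic (size over root F), and intervals use the fit's degrees of freedom. Deposited count shares were compared by an exact permutation test. Sequences and lengths came from GENCODE M21. The edgeR fit was tested on simulated counts, and the permutation test and its adjustment on values with known answers. The Wilson intervals of the shares cover counting error only, and they treat reads as independent molecules, which reads are not. The intervals of the log2 fold changes come from the fit and include the spread between libraries.

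The members and lists were chosen with earlier results of these data known. Named genes are all members, up to 4 genes with the smallest p of each other list, the 5 genes most like the members, and Tfam. Named outside that rule, with their values known, are mt-Co1, Camk2a, Kdm5d and Xist. Alternatives were other scalings, filters, DESeq2 1.42.0, limma 3.58.1 on counts and on the deposited signal, a replicate block, a choroid plexus covariate and left-out libraries. Lists were described by counts and medians, and cell type markers also by summed CPM.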

Additional observations from a re-analysis of the deposited data

How the results depend on the processing

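All 7 members had negative log2 fold changes under each of 25 alternatives, and mt-Nd1, mt-Nd2, mt-Nd4 and mt-Nd4l passed in all of them. Between 5 and 6 members passed under the 15 alternatives that did not leave out a single library, and between 4 and 6 when each library was left out in turn. Over all genes, 4828 to 7094 passed when a library was left out, against 6048. Without WT 3, 4 and 5, 2752 genes passed. Total counts without a scaling factor gave 3898 genes higher and 1975 lower, against 3369 and 2679, and the median of all genes stayed between -0.05 and 0.03 on the log2 scale. Besides the alternatives given above, mt-Nd6 passed with the DESeq2 Wald test (adjusted p = 0.0481) and with the choroid plexus score as covariate (0.00869).

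Of the 13 shares, 0 were called without WT 3, 4 and 5 (smallest p possible 0.0476), 0 without TfamAKO 4 and 5 (0.0179), and 0 to 5 when a library was left out, against 4. The deposited normalized signal gave 4. The share of mt-Nd6 changed sign without WT 3, 4 and 5 (-0.0109 percentage points, against 0.00291). The share of mt-Nd1 was called without WT 4 (adjusted p = 0.0258) and that of mt-Nd4 without TfamAKO 1 (0.0206). The cause of these changes was not tested.

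Deviations of same-numbered WT and TfamAKO libraries correlated at -0.142 to 0.0691, so the replicate numbers were not taken as pairs. With the replicate block, 5679 genes and 6 members passed, mt-Nd6 among them (log2 fold change -0.38, adjusted p = 0.0435).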

Other observations

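The ratio of mt-Nd6 to mt-Nd5 per coding base, a pair chosen after its values were seen and given without a test, was 0.0467 and 0.0458 in WT 1 and 2 and 0.0334, 0.0335 and 0.0330 in WT 3, 4 and 5. The latter are the libraries with choroid plexus transcripts. In TfamAKO 1 to 5 the ratio was 0.0407, 0.0335, 0.0332, 0.0329 and 0.0309. The groups overlapped. Per coding base, the ratio of mt-Nd5 to mt-Nd4, genes that follow each other on the same strand, was 0.463 to 0.526 in WT. It was 0.561 to 0.654 in TfamAKO, without overlap. That of mt-Nd2 to mt-Nd1 was 0.649 to 0.695 in WT and 0.537 to 0.661 in TfamAKO, overlapping ranges. These pairs were picked by hand with earlier results of these data known, and they are given without a test.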
